A study of Homo sapiens with 8 samples.

Results

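LNCaP is an established human prostate adenocarcinoma line that depends on androgen signalling, and METTL3 is the enzyme that writes most N6-methyladenosine (m6A) in messenger RNA. The comparison described here sets LNCaP cells carrying a hairpin against METTL3 together with a hairpin-resistant, catalytically dead METTL3 (mutant rescue) against cells with a control hairpin and a vector (control). The members are the libraries whose labels give these constructs, 2 of the mutant rescue and 2 of the control, 4 of the 8 libraries in the series. The other 4 are 2 of a line with the METTL3 hairpin and a vector (knockdown) and 2 of a line with that hairpin and a resistant wild-type METTL3 (wild-type rescue). They are used to test where the mutant rescue differs from those lines. All lines were made with lentivirus, selected with puromycin at 1 µg/ml and grown in serum. Control and mutant rescue thus differ in the hairpin and in the introduced METTL3 at once, and the comparison cannot tell these apart. The labels do not give the altered residue, the promoter that drives the introduced METTL3, whether a line is a clone or a pool, or whether a line's libraries were made from separate cultures. The p-values therefore refer to the spread between these libraries, which may be technical.

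METTL3 works in a heterodimer with METTL14, in which METTL3 holds the catalytic site and METTL14 helps to bind RNA. WTAP, ZC3H13, VIRMA (listed as KIAA1429), RBM15 and CBLL1 place the heterodimer on its targets in the nucleus. Methylated adenosines are read by YTH-domain proteins, which are known for shortening the life of many messages, and are removed by ALKBH5 and FTO. No m6A was measured in these libraries, so all values below are RNA levels.

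The catalytic pocket of METTL3 is known for the 4-residue motif DPPW, the usual site of change in inactive METTL3 constructs. To show where that motif lies, the reference coding sequence around it is given, with its 4 codons in capitals. In the transcript METTL3-201 of GENCODE release 29, which encodes 580 residues, DPPW is at residues 395 to 398, and the stretch covers coding bases 1159 to 1218.
METTL3: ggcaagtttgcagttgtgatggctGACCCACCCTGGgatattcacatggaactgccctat
This is the unaltered sequence, and the labels do not say which residue of the introduced copy was changed.

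METTL3 RNA stood at 68.4 and 68.5 CPM (TMM-scaled counts, set to the same library size) in the control libraries. It was at 333 and 334 in the mutant rescue libraries, a difference of 2.29 (SE 0.03) on the log2 scale. METTL3 is the introduced gene, and its high level was part of the choice of this comparison. The difference is therefore a description of the construct, without a p-value. The mutant rescue libraries were thus far above both control libraries, and counts of the endogenous and the introduced copy cannot be separated. Both knockdown libraries were lower, at 26.2 and 31.3, while the wild-type rescue libraries reached 309 and 325. Per kilobase of gene length, the METTL3 level was 33.8 CPM in the control and 165 in the mutant rescue, while METTL14 was at 6.38 and 8.33. The ratio of METTL3 to METTL14 RNA on that scale was 5.3 in the control and 19.8 in the mutant rescue. The deposited gene length was used in both lines. The introduced transcript may have another length, so the ratio of the mutant rescue is approximate. METTL14 itself rose from 23.6 and 21.2 CPM to 29.4 and 29.02, a log2 fold change of 0.38 (SE 0.08). Of the 9 writer genes tested, 6 rose and 1 fell in the mutant rescue, with a median log2 fold change of 0.32. The rises and the median include METTL3, the introduced gene. Over all tested genes, 29.1% were called higher and 29.7% lower. WTAP, which anchors the complex in nuclear speckles, rose from 74.2 and 71.3 CPM to 91.6 and 89.96. RBM15, an RNA-binding adaptor, had a log2 fold change of 0.41 (SE 0.07), and METTL16, a separate methyltransferase, one of 0.37 (SE 0.05). Here and below, values given with an SE are log2 differences from the control unless another line is named, and "rose" and "fell" are used for genes called by the test. WTAP, RBM15 and METTL16 were also higher in the mutant rescue than in the knockdown and in the wild-type rescue. Among 12 readers and erasers 5 rose and 2 fell, to be set beside the same shares over all tested genes. RBMX, a nuclear RNA-binding protein, fell from 96.2 and 91.4 CPM to 50.7 and 53.2, a log2 fold change of -0.85 (SE 0.05), and the eraser ALKBH5 rose by 0.18 (SE 0.03).

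**Figure D1:**
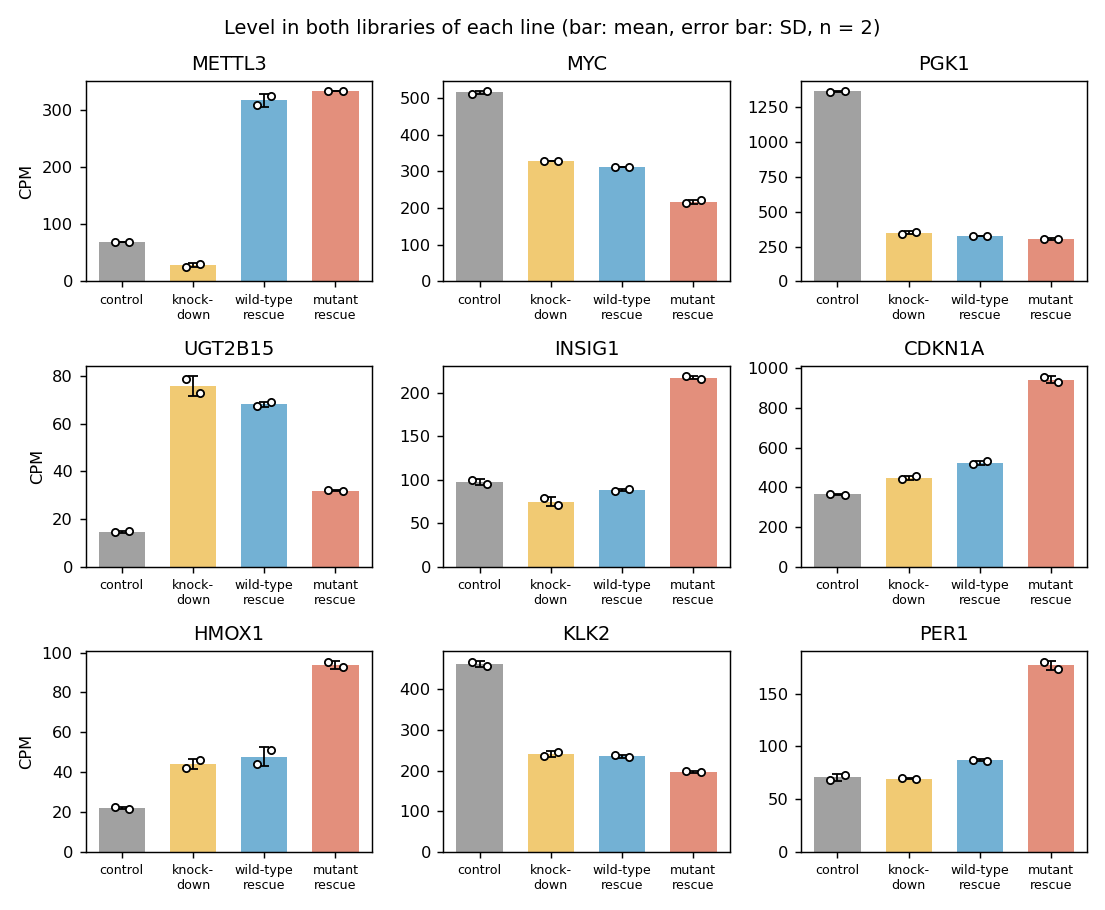
Level (CPM, linear axis from 0) of 9 genes in the 4 lines; bars are means, error bars the SD and open circles the 2 libraries of a line. METTL3 reached 333 and 334 CPM in the mutant rescue, while PGK1 was low in the 3 lines with the METTL3 hairpin and UGT2B15 was highest in the knockdown.

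The 8 libraries held 15200343 to 17893241 counts, and the filter on low counts kept 15289 of 27140 genes. Libraries of the same line differed by slightly more than sampling noise (chi-square per degree of freedom 1.22 to 1.37), and the spread between them was small, with a biological coefficient of variation of 1.40%. Of ribosomal RNA, the entries RNR1 and RNR2 took 3.22% and 3.27% of the control libraries' counts and 2.71% and 2.72% of those of the mutant rescue, and the part of that difference in the results was not tested. Both lines expressed the prostate luminal marker KLK3, which encodes prostate-specific antigen, at 3705 and 3684 CPM in the control and 3105 and 3067 in the mutant rescue. Of markers of other cell types some were expressed and others were at or near 0. Of 17 immune and endothelial markers 14 stayed under 1 CPM in the 4 libraries and PTPRC, CD3E and HBA1 had no count; their summed level was 33.7 to 36.6 CPM in the control and 29.7 to 29.8 in the mutant rescue. Of 20 basal markers 10 stayed under 1 CPM, KRT5 and TP63 among them (summed level 420.4 to 422 and 405 to 412 CPM, with NOTCH1 at a mean of 126). Among 21 neuroendocrine markers 14 did, including CHGA (451 to 455 and 359.9 to 363 CPM, with SYT4 at a mean of 154), and 8 of 20 mesenchymal markers did, with ZEB2 and COL1A2 at no count (713 to 718 and 735 to 747 CPM, with FN1 at a mean of 579.6).

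Control and mutant rescue were chosen for description as the most distant pair of lines, so their distance is given as a description only. The root mean square log2 difference between a control and a mutant rescue library was 0.389 to 0.393, against 0.148 to 0.164 between the 2 libraries of a line and 0.196 to 0.328 for the other pairs of lines. By edgeR's quasi-likelihood test 8993 of the 15289 genes passed a Benjamini-Hochberg adjusted p of 0.05, which is 58.8% of them. Of these, 4451 were higher in the mutant rescue (29.1%) and 4542 lower (29.7%), and most changes were small, the median size on the log2 scale being 0.368. Of the called genes, 837 changed by at least 1 on the log2 scale, 373 higher and 464 lower. DESeq2 called 6644 genes. Against the knockdown 7909 genes differed (51.7%; 3964 higher, 25.9%, and 3945 lower, 25.8%), and against the wild-type rescue 6307 did (41.3%; 3206 higher, 21%, and 3101 lower, 20.3%). These 3 comparisons use the same mutant rescue libraries, so their counts are given side by side and their overlap is not read. With so many genes called, a list of genes is described below by its counts beside these shares and by its median log2 fold change, which was -0.0002 over all tested genes.

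**Figure D2:**
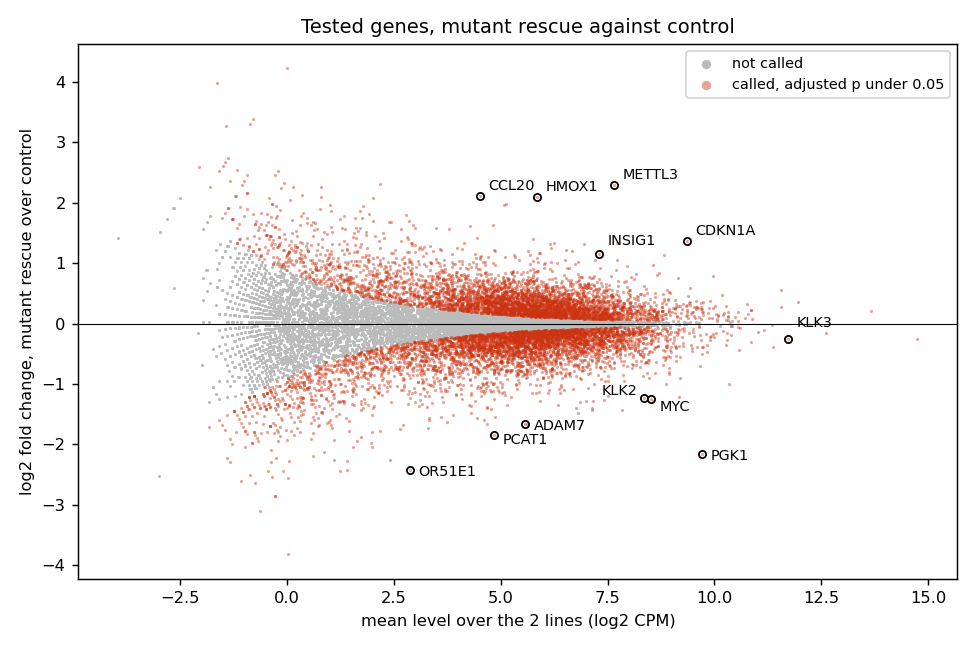
Log2 fold change of each tested gene, mutant rescue over control, against its mean level over the 2 lines (log2 CPM); red points are called, grey points are not. METTL3, CCL20 and HMOX1 stand at log2 fold changes above 2 and PGK1 and OR51E1 below -2.

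The largest rise by the naming rule after METTL3 was in CCL20, a chemokine that attracts CCR6-bearing lymphocytes. It stood at 8.84 and 8.38 CPM in the control and 37.2 and 36.9 in the mutant rescue, a rise of 2.10 (SE 0.09) on the log2 scale (edgeR adjusted p = 2.14e-52). CCL20 was higher still in the knockdown, at 50.2 and 51.9, so that the mutant rescue had a log2 difference of -0.46 (SE 0.06) from it. HMOX1, which degrades heme, behaved otherwise. It went from 22.4 and 21.4 CPM to 95.3 and 92.5, a log2 fold change of 2.10 (SE 0.06), with the knockdown at 42.2 and 45.9 and the wild-type rescue at 44.3 and 51.1 in between. The mutant rescue exceeded the knockdown by 1.09 (SE 0.05) and the wild-type rescue by 0.97 (SE 0.05). CYP1A1, an oxidase induced by the aryl hydrocarbon receptor, had the same order of lines, from 13.96 and 13.8 CPM in the control to 43.01 and 42.8 in the mutant rescue (1.63, SE 0.08). FAM132A, which encodes a secreted protein, was at 3.41 and 2.83 CPM in the control, 3.39 and 3.3 in the knockdown and 10.6 and 11.02 in the mutant rescue (1.79, SE 0.16).

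For some of the other rises the knockdown and the wild-type rescue were also well above the control. CP, the copper-binding ferroxidase ceruloplasmin, rose from 15.2 and 13.2 CPM to 54.9 and 56.4, a log2 fold change of 1.97 (SE 0.07), and was at 49.7 and 48.99 in the knockdown. IGFBP3, which binds insulin-like growth factors, rose from 14.2 and 13.4 CPM to 55.6 and 52.2 (1.97, SE 0.07), with 63.1 and 65.9 in the wild-type rescue. MAP2, a neuronal microtubule-binding protein, rose by 1.58 (SE 0.12) over the control, with a log2 difference of -0.69 (SE 0.08) from the knockdown. SERPINI1, an inhibitor of serine proteases, had a log2 fold change of 1.62 (SE 0.09) and TMPRSS11E, a membrane serine protease, of 1.63 (SE 0.15); both were below the knockdown and the wild-type rescue. The cell cycle inhibitor CDKN2B rose from 4.23 and 3.4 CPM to 9.86 and 10.8 (1.43, SE 0.15). The other rises among the 15 were in PPP1R32, LSMEM1, BNIPL and HIST1H2BC, at log2 fold changes of 1.56 to 1.69. PPP1R32 exceeded the knockdown by 1.47 (SE 0.15), LSMEM1 by 0.74 (SE 0.15), BNIPL by 0.58 (SE 0.15) and CDKN2B by 0.54 (SE 0.13).

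The deepest fall by the naming rule was in OR51E1, an olfactory receptor expressed in prostate. It stood at 12.3 and 12.7 CPM in the control and at 2.58 and 2.08 in the mutant rescue, a log2 fold change of -2.42 (SE 0.16), and was intermediate in the knockdown (7.79 and 7.63) and wild-type rescue (7.22 and 8.07). PGK1, a glycolytic kinase, was the most abundant of the 15 falls. It went from 1361 and 1369 CPM to 302 and 308, a log2 difference of -2.16 (SE 0.02) (edgeR adjusted p = 9.12e-141). The knockdown and wild-type rescue were also low, at 343 and 358 and 329 and 326, and the labels do not say whether a construct holds sequence of PGK1, so what part this has was not tested. PCAT1, a prostate noncoding RNA, fell by 1.84 (SE 0.08) to 12.1 and 12.8 CPM. AGR2, a disulfide isomerase of secretory epithelia, went from 34.8 and 30.5 CPM to 11.4 and 10.8, a log2 fold change of -1.56 (SE 0.09).

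Several of these falls were also large against the other lines with the hairpin. EHHADH, a peroxisomal enzyme of fatty acid oxidation, stood at 9.79 and 10.3 CPM in the control, 8.07 and 8.77 in the knockdown and 3.18 and 3.08 in the mutant rescue. Its log2 difference was -1.68 (SE 0.16) from the control, -1.42 (SE 0.16) from the knockdown and -1.14 (SE 0.17) from the wild-type rescue. CFAP44, a protein of cilia and flagella, had 15.8 and 14.4 CPM in the control, 12.7 and 11.4 in the wild-type rescue and 4.83 and 5.16 in the mutant rescue, where it was lower than in every other line. ZNF37A, a zinc finger protein, fell by 1.66 (SE 0.06) and THNSL1, a homologue of threonine synthase, fell by 1.59 (SE 0.08); both were lower than in the knockdown by more than 1 on the log2 scale. The alpha-2A adrenergic receptor ADRA2A went from 9.86 and 9.39 CPM to 2.25 and 3.46 (-1.74, SE 0.17), and the small GTPase regulator RIN2 from 16.6 and 13.9 to 4.7 and 4.47 (-1.73, SE 0.13). NCOA5, a nuclear receptor coregulator, fell by 1.66 (SE 0.08), and SOX8, a transcription factor, fell by 1.62 (SE 0.12). SOX8 did not differ by the test from the wild-type rescue (-0.25, SE 0.14, edgeR adjusted p = 0.161). UFSP1, a protease-family gene of the UFM1 modifier, went from 8.91 and 8.69 CPM to 1.32 and 2.33 (-2.25, SE 0.19) and SAMD13 from 14.7 and 15.1 to 5.36 and 4.72 (-1.56, SE 0.13).

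**Figure D3:**
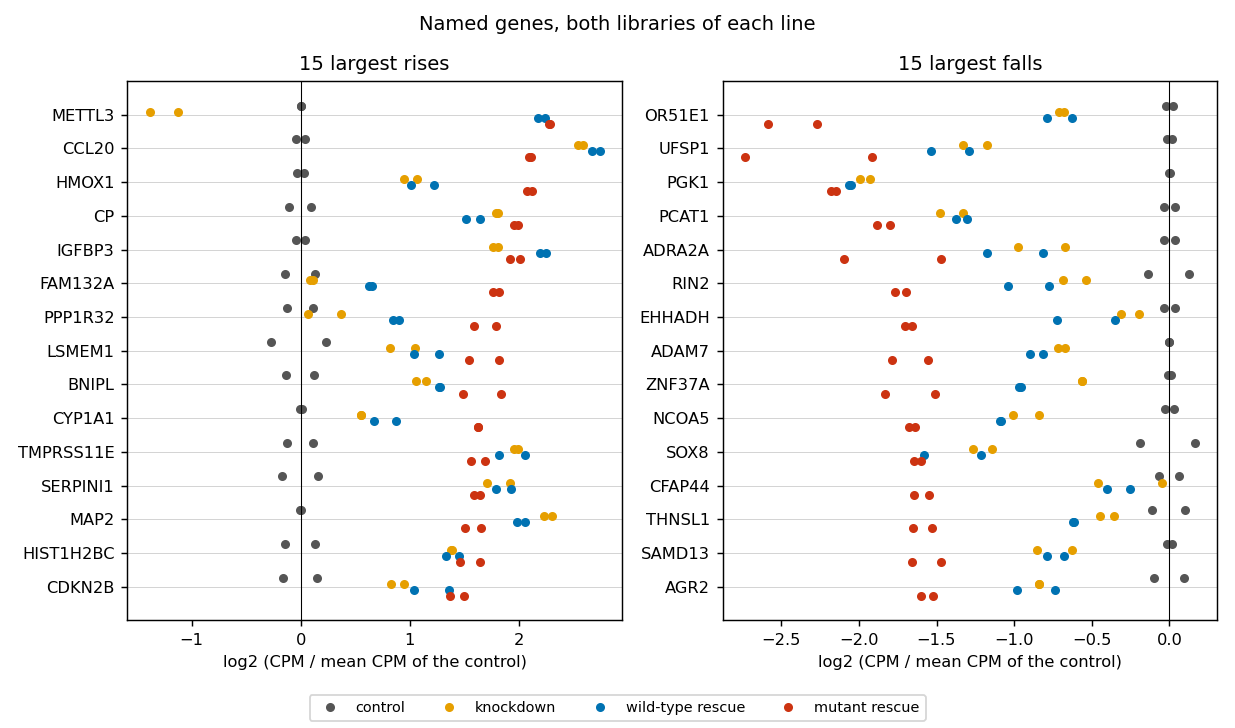
Log2 of the CPM in each library over the mean of the control, for the 15 largest rises and the 15 largest falls chosen by the naming rule; each gene has 8 points, 2 per line. For EHHADH and CFAP44 the mutant rescue libraries lie below those of the other 3 lines, while for CCL20 and MAP2 they lie between the control and the knockdown.

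MYC and the genes of ribosome biogenesis fell almost throughout. MYC is a transcription factor known for driving the making of ribosomes, and the list holds MYC with factors that transcribe, process and assemble ribosomal RNA. Of 44 tested members 41 were lower in the mutant rescue and 0 higher, with a median log2 fold change of -0.71, and 3 were not called. The list was also lower in the other lines with the hairpin, by less. Over the same control 36 members were lower and 2 higher in the knockdown (median -0.25). In the wild-type rescue 39 were lower and 1 higher (median -0.42). The mutant rescue was also lower than the knockdown in 37 members and lower than the wild-type rescue in 38, with 0 higher in either. MYC stood at 512 and 519 CPM in the control libraries, at 328 and 328 in the knockdown, at 312 and 313 in the wild-type rescue and at 213 and 221 in the mutant rescue. The control libraries were thus the highest and the mutant rescue libraries the lowest, with the other lines between them, and the log2 difference from the control was -1.25 (SE 0.02) (edgeR adjusted p = 2.91e-96). Against the knockdown and the wild-type rescue it was -0.59 (SE 0.03) and -0.52 (SE 0.03).

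The members with the largest falls act at several steps. BOP1, which processes the large subunit's RNA, went from 29.1 and 26.01 CPM to 10.7 and 10.95 (-1.34, SE 0.09). NOP56 and NOP58, core proteins of the box C/D particles that methylate ribosomal RNA, fell from 184 and 179 to 75.4 and 75.04 (-1.27, SE 0.04) and from 95.4 and 97.1 to 42.8 and 46.8 (-1.10, SE 0.05). RRP9, a protein of the U3 particle that processes the small subunit's RNA, fell by 1.11 (SE 0.08), and NOP16, a nucleolar protein, fell by 1.15 (SE 0.07). NCL, the abundant nucleolar protein nucleolin, had 762 and 754 CPM in the control and 399 and 414 in the mutant rescue (-0.90, SE 0.02).

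Because these members fell together, their RefSeq promoters (GRCh38.p14, 250 bases before to 50 after the gene start) were searched for the E-box CACGTG, a palindrome and thus the same on both strands. It was found in 15 of the 34 members with a promoter in the table (44.1%) and in 2548 of all 35116 promoters (7.26%). All 15 were called lower, as were 17 of the 19 members without it. Of the 11109 tested genes with a promoter in the table, 12.4% held it, which is the nearer background for a list of expressed genes. To show the motif in its setting, windows are given for 4 of the 15 members, chosen after their values were seen, with the E-box in capitals.
RRP9, chr3:51941892-51941921, minus strand: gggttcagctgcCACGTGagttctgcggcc
MYBBP1A, chr17:4555340-4555369, minus strand: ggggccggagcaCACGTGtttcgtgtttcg
LYAR, chr4:4290068-4290097, minus strand: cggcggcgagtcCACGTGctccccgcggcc
WDR43, chr2:28894658-28894687, plus strand: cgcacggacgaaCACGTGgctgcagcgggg
MYBBP1A, a nucleolar regulator of transcription, had a log2 fold change of -1.07 (SE 0.04), LYAR, a nucleolar zinc finger protein, of -0.99 (SE 0.08) and WDR43, a subunit of the small-subunit processome, of -0.78 (SE 0.05). A match describes these letters only, and no binding was measured.

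The partners of MYC moved less uniformly. Of 12 tested genes of the MYC network, which includes MYC, 8 were lower and 3 higher. MGA, a repressor that pairs with MAX, fell by 0.58 (SE 0.05), and MAX itself fell by 0.27 (SE 0.06). MXD1, which competes with MYC for MAX, rose from 18.7 and 17.3 CPM to 27.5 and 25.1 (0.54, SE 0.08) and exceeded the knockdown by 0.72 (SE 0.09); MXD3, of the same family, rose by 0.38 (SE 0.08).

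The cytosolic aminoacyl-tRNA synthetases, which load amino acids onto transfer RNA, were lower in 18 of 20 members and higher in 0, with a median log2 fold change of -0.38. FARSA and FARSB, the subunits of the phenylalanine enzyme, went from 151 and 149 CPM to 85.2 and 90.9 (-0.77, SE 0.04) and from 94.9 and 93.3 to 58.4 and 58.7 (-0.68, SE 0.05). VARS, the valine enzyme, fell by 0.68 (SE 0.03). Against the knockdown 13 members were lower and 2 higher, and against the wild-type rescue 11 were lower and 5 higher. YARS, the tyrosine enzyme, was lower than in the control (-0.52, SE 0.03) but not by the test lower than in the knockdown (0.01, SE 0.03, edgeR adjusted p = 0.815).

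ATF4 is the transcription factor that raises amino acid uptake and synthesis when amino acids run short, and its targets and related transporters form the next list. In the mutant rescue 24 of 38 were lower and 6 higher than in the control, with a median of -0.29. The sign differed against the other lines with the hairpin, where 17 were higher and 9 lower than in the knockdown, and 17 higher and 5 lower than in the wild-type rescue. ATF4 had 329 and 326 CPM in the control, 191 and 189.5 in the knockdown, 199 and 199 in the wild-type rescue and 241 and 242 in the mutant rescue. Its libraries thus lay between the control and the other lines, at -0.44 (SE 0.03) from the control and 0.35 (SE 0.03) from the knockdown. The neutral amino acid transporters SLC38A2 and SLC38A1 did not have that order. SLC38A2 went from 251 and 255 CPM in the control to 111 and 109 (-1.20, SE 0.03) and SLC38A1 from 195 and 192 to 97.8 and 94.6 (-1.01, SE 0.03), and both were lower than in the knockdown and the wild-type rescue. The cationic amino acid transporter SLC7A1 fell by 0.73 (SE 0.03) and did not differ by the test from the wild-type rescue (-0.0022, SE 0.03, edgeR adjusted p = 0.967). STC2, a secreted glycoprotein, stood at 101 and 102 CPM in the control and 59.2 and 55.1 in the mutant rescue (-0.82, SE 0.05). CHAC1, which degrades glutathione, was at 14.2 and 16.6 CPM in the control and 14.7 and 14.98 in the mutant rescue, a difference that was not called (-0.05, SE 0.10, edgeR adjusted p = 0.694), while the knockdown was at 5.47 and 4.58. The stress factors DDIT3 and ATF3 were above the control, DDIT3 from 41.7 and 38.1 to 60.01 and 66.6 (0.67, SE 0.06) and ATF3 from 87.2 and 95.5 to 133 and 127 (0.51, SE 0.04), although both were below it in the knockdown at 30.1 and 30.6 and 65.2 and 63.2.

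The core of the amino acid response element, searched as TGATGNAA on both strands, was found in 10 of 31 list members with a promoter in the table (32.3%), in 1270 of all promoters (3.62%) and in those of 311 of the 11109 tested genes. Of the 10, 7 were called lower and 1 higher, and of the 21 without it 12 and 4. Windows are shown for 3 transporters to place the motif near the gene start, with its letters in capitals; in SLC1A4 it reads on the other strand.
SLC38A1, chr12:46266502-46266531, minus strand: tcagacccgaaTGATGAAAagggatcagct
SLC1A4, chr2:64989381-64989410, plus strand: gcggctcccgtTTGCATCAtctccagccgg
SLC1A5, chr19:46784893-46784922, minus strand: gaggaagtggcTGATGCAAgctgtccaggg
SLC1A4, which carries small neutral amino acids, went from 11.3 and 12.7 CPM to 6.48 and 5.92 (-0.96, SE 0.13), and SLC1A5, a glutamine transporter, from 145 and 146 to 100.04 and 100.3 (-0.54, SE 0.04).

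Genes of cholesterol synthesis and uptake were more often higher. SREBF2 drives this pathway, and INSIG1 holds it back in the endoplasmic reticulum when sterols are plentiful. Of 34 members 18 were higher and 6 lower in the mutant rescue, with a median log2 fold change of 0.15; DESeq2 left 2 lower, and 3 were lower without control replicate 2. Against the knockdown 20 were higher and 4 lower, and against the wild-type rescue 19 and 3. INSIG1 stood at 100.01 and 95.2 CPM in the control, 78.6 and 70.9 in the knockdown, 87.6 and 89.1 in the wild-type rescue and 219 and 216 in the mutant rescue (1.16, SE 0.04 over the control). Both mutant rescue libraries were above every library of the other lines. Of the enzymes, MSMO1, a sterol demethylase, went from 54.1 and 56.9 to 128 and 130.3 CPM (1.22, SE 0.04). HMGCS1, an early enzyme of the pathway, went from 79.4 and 81.5 to 139.7 and 146 (0.83, SE 0.04). IDI1, an isomerase of isoprenoid units, rose by 0.75 (SE 0.05), and STARD4, a sterol carrier, by 0.72 (SE 0.06). SQLE, squalene epoxidase, was not called (-0.12, SE 0.05, edgeR adjusted p = 0.0574; called lower without control replicate 1, with an edgeR adjusted p of 0.0272). The regulators SREBF1 and SREBF2 were near the control level, at 809 and 792 CPM against 792 and 802 and 393 and 376 against 368 and 378, with edgeR adjusted p-values of 0.82 and 0.0972. SREBF2 was called higher with the length trend removed (edgeR adjusted p = 0.038) or without mutant rescue replicate 2 (0.016). Both were above the knockdown, by 0.50 (SE 0.02) and 0.31 (SE 0.02).

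Fatty acid synthesis genes split against the control, 9 higher and 6 lower of 25, while 11 were higher and 3 lower than in the knockdown. FASN, fatty acid synthase, had 2712 and 2723 CPM in the control, 1750 and 1797 in the knockdown, 1565 and 1628 in the wild-type rescue and 3323 and 3229 in the mutant rescue. The mutant rescue exceeded the control by 0.27 (SE 0.02) and the wild-type rescue by 1.04 (SE 0.02). ACSS2, which makes acetyl-CoA from acetate, rose by 0.54 (SE 0.05), while the elongase ELOVL5 fell by 0.54 (SE 0.02) and ACLY, which makes cytosolic acetyl-CoA from citrate, fell by 0.37 (SE 0.02).

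**Figure D4:**
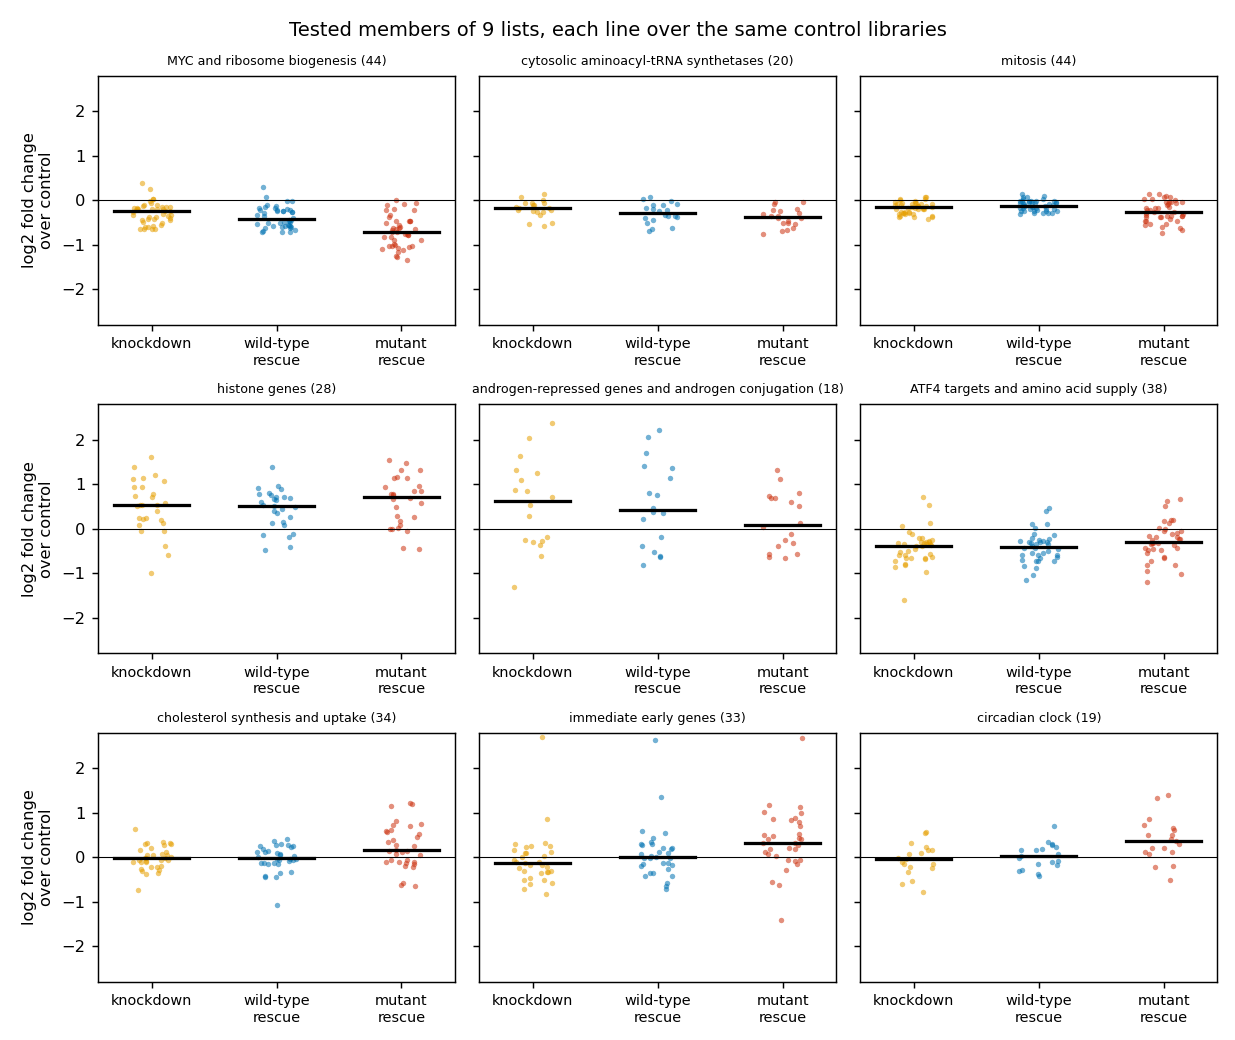
Log2 fold change over the control of each tested member of 9 lists in the knockdown, wild-type rescue and mutant rescue; points are genes, bars medians, and all 3 columns share the same control libraries. The median of the ribosome biogenesis list is -0.71 in the mutant rescue, and that of the circadian list 0.37.

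In the BCL2 family, whose members promote or block apoptosis, 8 of 15 rose and 3 fell. BBC3 and PMAIP1, which promote it, went from 36.96 and 38.2 to 86.1 and 82.4 CPM (1.16, SE 0.05) and from 24.6 and 24.9 to 52.5 and 55.9 (1.13, SE 0.06). BMF, a further promoter of apoptosis, went from 42.7 and 43.5 CPM to 105 and 112 (1.33, SE 0.05). The effector BAK1 rose by 0.72 (SE 0.08), and BCL2L1, which in its long form blocks apoptosis, rose by 0.28 (SE 0.04). BOK, which also promotes apoptosis, was among the members that fell, from 76.1 and 74.4 CPM to 63.8 and 60.3 (-0.28, SE 0.05). The knockdown was also above the control in BMF (0.83, SE 0.05), PMAIP1 (0.61, SE 0.07) and BAK1 (0.46, SE 0.08), but below it in BBC3 (-0.30, SE 0.06). The mutant rescue exceeded the knockdown in BMF by 0.50 (SE 0.04), PMAIP1 by 0.52 (SE 0.06), BAK1 by 0.27 (SE 0.07) and BBC3 by 1.46 (SE 0.05). CDKN1A, an inhibitor of cyclin-dependent kinases, stood at 366 and 362 CPM in the control, 442 and 455 in the knockdown, 516 and 530.4 in the wild-type rescue and 958 and 929.8 in the mutant rescue. The mutant rescue libraries were the highest, above the control by 1.37 (SE 0.02) on the log2 scale (edgeR adjusted p = 1.21e-110). DDB2, a DNA damage sensor, rose by 0.87 (SE 0.05), GADD45A, a stress-induced growth arrest protein, by 0.99 (SE 0.05), and ZMAT3, an RNA-binding zinc finger protein, by 0.69 (SE 0.04).

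Targets of NRF2, the factor of the oxidative stress response encoded by NFE2L2, were higher in 17 of 28 and lower in 6. Besides HMOX1, FTH1 and SLC48A1 were among the members that rose. FTH1, the ferritin heavy chain that stores iron, went from 753 and 728 CPM to 1274 and 1270 (0.78, SE 0.02), and SLC48A1, which exports heme from lysosomes, from 40.6 and 42.3 to 67.6 and 67.4 (0.70, SE 0.05). OSGIN1, induced by oxidative stress, rose by 1.05 (SE 0.11) and the quinone reductase NQO1 by 0.49 (SE 0.03). NFE2L2 rose by 0.35 (SE 0.05). In the mutant rescue 20 members were higher than in the knockdown and 19 higher than in the wild-type rescue, with 3 lower in each.

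Immediate early genes, which respond within minutes to growth factors and stress, rose in 18 of 33 and fell in 3, with a median of 0.33. GADD45B, a relative of GADD45A, had 36.6 and 36.6 CPM in the control, 24.03 and 25.04 in the knockdown, 35.8 and 36.9 in the wild-type rescue and 81.6 and 83.5 in the mutant rescue (1.17, SE 0.05). IER5, an early response regulator, went from 33.9 and 30.7 to 72.1 and 69.2 (1.13, SE 0.06), the RNA-destabilising ZFP36 from 52.8 and 50.96 to 94.6 and 95.2 (0.87, SE 0.05) and JUND, a part of AP-1, from 302 and 295 to 548 and 524 (0.84, SE 0.02). The exception among the large changes was DUSP4, a phosphatase of MAP kinases, which fell from 202 and 209 CPM to 78.5 and 76.7 (-1.40, SE 0.04).

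Genes of the circadian clock rose in 13 of 19 and fell in 2, with a median log2 fold change of 0.37. The clock runs on CLOCK and ARNTL, which bind E-boxes, and on the PER and CRY proteins that repress them. PER1 stood at 68.4 and 72.9 CPM in the control, 69.7 and 68.8 in the knockdown, 87.4 and 86.3 in the wild-type rescue and 179.9 and 174 in the mutant rescue, so that the mutant rescue libraries were more than 1 log2 unit above each other line (1.32, SE 0.04 over the control). CRY2 went from 30.01 and 29.2 CPM to 78.9 and 77.2 (1.40, SE 0.05), with the knockdown at 44.7 and 43.5. The output factor DBP rose by 0.86 (SE 0.06) and the repressor BHLHE40 by 0.72 (SE 0.06). CLOCK fell by 0.21 (SE 0.05). Against the knockdown 14 members were higher and 3 lower, and against the wild-type rescue 12 and 2. The labels give no time of harvest, so its part in the differences between lines was not tested. The E-box CACGTG was found in 6 of 17 promoters of this list (35.3%), 5 of them of genes called higher, set beside the 12.4% of tested genes; of the 11 members without it 6 were called higher. The same letters thus lie in promoters of genes that rose here and of ribosome biogenesis genes that fell; windows of PER1 and CIART, a clock repressor, are shown for that comparison, again with the E-box in capitals.
PER1, chr17:8152560-8152589, minus strand: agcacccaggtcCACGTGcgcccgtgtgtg
CIART, chr1:150282413-150282442, plus strand: agtaactagagtCACGTGttaccggcgaca
CIART went from 8.78 and 9.95 CPM to 13.8 and 12.6 (0.49, SE 0.11).

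Cell cycle genes were mostly lower. Of 44 mitotic genes 31 fell and 1 rose (median -0.27), and of 45 genes of DNA replication and E2F targets 29 fell and 4 rose (median -0.20). Without control replicate 1, 2 replication genes rose, and without mutant rescue replicate 2, or by DESeq2, 0 mitotic genes rose. Against the knockdown 15 mitotic genes were lower and 8 higher, and 17 replication genes lower and 7 higher. Against the wild-type rescue 19 mitotic genes were lower and 1 higher, and 18 replication genes lower and 3 higher. HMMR, a spindle protein, went from 79.98 and 78.9 CPM to 46.9 and 48.8 (-0.73, SE 0.05), the mitotic kinase PLK1 from 61.03 and 60.3 to 39.8 and 39.03 (-0.62, SE 0.05) and cyclin B1 (CCNB1) from 105 and 107 to 70.4 and 70.2 (-0.59, SE 0.04). The replicative helicase subunits MCM3, MCM4 and MCM2 fell, with log2 fold changes of -0.78 (SE 0.05), -0.75 (SE 0.04) and -0.74 (SE 0.05). CCNE2, a cyclin of the entry into S phase, fell by 0.79 (SE 0.11). In bulk RNA, fewer cycling cells and less RNA per cell cannot be told apart. Histone genes went the other way, with 17 of 28 higher and 1 lower and a median of 0.72. The other lines with the hairpin were also above the control. In the knockdown 16 were higher and 1 lower (median 0.54), and in the wild-type rescue 14 and 1 (median 0.52). Set against the knockdown, the mutant rescue was higher in 6 and lower in 4, and against the wild-type rescue in 6 and 1. HIST2H2BE went from 122 and 118 CPM to 297 and 308 (1.33, SE 0.03) and HIST1H2BD from 41.9 and 39.3 to 102 and 102 (1.32, SE 0.05). Most histone messages lack a poly(A) tail, and the libraries were made with a messenger RNA kit, so these values may cover mainly the polyadenylated forms, which was not tested; near-identical histone copies can also share reads.

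Of 13 prostate lineage factors 7 fell and 3 rose. FOXA1, a pioneer factor that opens chromatin, fell by 0.38 (SE 0.02) and the ETS factor ETV1, which is rearranged in LNCaP, from 417 and 405 CPM to 265 and 264 (-0.63, SE 0.02). ELF3, an epithelial ETS factor, rose from 148 and 143 to 268 and 269 (0.89, SE 0.03), and ONECUT2, a homeobox factor, rose by 0.46 (SE 0.05).

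Androgen-induced genes numbered 47, of which 31 fell and 10 rose in the mutant rescue, with a median of -0.26; DESeq2 left 6 that rose. Compared with the knockdown 20 were lower and 12 higher, and compared with the wild-type rescue 14 lower and 15 higher. KLK2, a kallikrein protease, went from 468 and 457 CPM to 198 and 195 (-1.23, SE 0.03), and KLK3 fell by 0.26 (SE 0.02). KLK3 was nevertheless higher in the mutant rescue than in the knockdown, by 0.24 (SE 0.02). ADAM7, a membrane protein of the epididymis and prostate, had 72.2 and 72.1 CPM in the control, 43.8 and 45.4 in the knockdown and 24.6 and 20.9 in the mutant rescue (-1.67, SE 0.06). C1orf116 went from 208 and 204 to 77.3 and 74.9 (-1.43, SE 0.04) and the transcription factor MAF from 43.1 and 40.8 to 20.05 and 19.3 (-1.09, SE 0.07). ERRFI1, an inhibitor of EGFR signalling, rose from 66.2 and 68.9 CPM to 129 and 126 (0.92, SE 0.04).

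Among androgen-repressed and androgen-conjugating genes, 5 of 18 were higher than in the control and 4 lower, but 10 were lower and 1 higher than in the knockdown. Against the control the counts were 3 and 1 by DESeq2 and 3 and 2 without control replicate 2. The enzymes UGT2B15 and UGT2B17, which inactivate androgens by glucuronidation, show the pattern. UGT2B15 stood at 14.3 and 14.9 CPM in the control, 79.04 and 73.1 in the knockdown, 67.6 and 69.1 in the wild-type rescue and 32.1 and 31.8 in the mutant rescue. The mutant rescue libraries were above the control by 1.13 (SE 0.08) and below the other lines, with log2 differences of -1.25 (SE 0.05) from the knockdown and -1.10 (SE 0.05) from the wild-type rescue. UGT2B17 had 22.9 and 21.5, 68.2 and 69.96, 59.6 and 58.4 and 36.5 and 40.98 CPM in the same order of lines. These genes are near-identical, so reads may be shared between them. DDC, which makes dopamine from L-DOPA, was at 0.52 (SE 0.06) from the control and -0.57 (SE 0.05) from the knockdown. ACPP, prostatic acid phosphatase, had 19.2 and 21.1 CPM in the control and 21.2 and 24.7 in the mutant rescue, against 53.4 and 51.8 in the knockdown. Its rise over the control (0.19, SE 0.08) was not called by DESeq2 (adjusted p = 0.151), without control replicate 1 (edgeR adjusted p = 0.32) or without mutant rescue replicate 2 (edgeR adjusted p = 0.551).

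Genes of the cytosolic ribosome and of the respiratory chain were higher, by small amounts. Of 79 ribosomal protein genes 62 rose and 4 fell (median 0.20), and respiratory chain and ATP synthase subunits rose in 48 cases of 75 with 9 falls (median 0.17). The median deposited length was 890.0 bases for the ribosomal protein genes and 975 for the respiratory genes, against 3194 over all tested genes, and fold change over the control fell slightly with gene length (Spearman rho across 15289 genes, which are not independent replicates, -0.0468). With that trend removed, 48 of the ribosomal protein genes rose and 7 fell, and 36 respiratory genes rose and 14 fell. By DESeq2, or without control replicate 1, 2 ribosomal protein genes fell. RPL27A went from 561 and 565 CPM to 775 and 765 (0.45, SE 0.02) and RPL38 from 407 and 423 to 539 and 564 (0.41, SE 0.02), while RPL36A fell by 0.83 (SE 0.11). UQCR10, a subunit of complex III, rose from 101 and 99.1 to 144 and 141 (0.51, SE 0.04), and NDUFA3, a subunit of complex I, by 0.50 (SE 0.05). Respiratory genes were, however, more often lower than higher when the mutant rescue was set against the wild-type rescue, 26 and 5, and ribosomal protein genes were higher in 31 and lower in 6 there. Over the same control, 65 ribosomal protein genes were higher and 2 lower in the wild-type rescue, and 37 and 7 in the knockdown. For the respiratory genes these counts were 59 and 2 in the wild-type rescue and 43 and 8 in the knockdown. Thus protein genes of the ribosome rose where the factors that assemble ribosomes fell, which was not particular to the mutant rescue.

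Glycolysis genes fell in 17 of 25 and rose in 5 (median -0.20). Besides PGK1, hexokinase HK2 went from 89.6 and 90.2 CPM to 52.8 and 50.4 (-0.80, SE 0.05), lactate dehydrogenase LDHA from 409.6 and 403 to 262 and 257 (-0.65, SE 0.02) and the glucose transporter SLC2A1 from 64.8 and 68.9 to 44.9 and 43.8 (-0.59, SE 0.05). LDHA was at 401 and 402 in the knockdown, and the mutant rescue was below that line too (-0.63, SE 0.02). For ENO1, enolase, the log2 difference from the knockdown was -0.51 (SE 0.02).

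Heat shock chaperones fell in 17 of 24 and rose in 4. HSPH1, a nucleotide exchange factor of HSP70, went from 118 and 118 CPM to 67.2 and 62.2 (-0.87, SE 0.04). The HSP90 co-chaperones FKBP4 and STIP1 fell from 311 and 305 to 194 and 184 (-0.71, SE 0.03) and from 211 and 205 to 136 and 132 (-0.63, SE 0.03). HSPA8, the constitutive HSP70, had 829 and 831 CPM in the control, 1122 and 1126 in the knockdown and 593 and 613 in the mutant rescue. DNAJB4, an HSP40, rose by 1.03 (SE 0.10).

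Splicing factors were split, 22 of 40 lower and 15 higher. SRSF3, an SR protein that partners the m6A reader YTHDC1, fell from 166 and 163 CPM to 64.9 and 68.7 (-1.30, SE 0.04) and was lower in the mutant rescue than in any other line. HNRNPM fell by 0.92 (SE 0.04) and HNRNPU, which binds nuclear RNA to chromatin, from 617 and 609 to 370.4 and 369.9 (-0.73, SE 0.02). SF1, the branch point binding protein, fell by 0.73 (SE 0.03) but did not differ by the test from the wild-type rescue (-0.0047, SE 0.03, edgeR adjusted p = 0.917). NKTR, a nuclear cyclophilin with an SR domain, rose from 294 and 292 to 508 and 512 (0.80, SE 0.02).

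Of 54 interferon-stimulated genes 21 rose and 12 fell, and DESeq2 left 5 that fell. IFI6 rose from 29.7 and 30.9 CPM to 70.1 and 69.7 (1.21, SE 0.06) to the level of the knockdown (69.7 and 67.4), whereas IRF1, a transcription factor of the interferon response, rose by 1.09 (SE 0.06) and exceeded the knockdown by 0.83 (SE 0.06). IFI44 rose by 0.74 (SE 0.10), with a log2 difference of -0.46 (SE 0.09) from the knockdown. HERC6, a ubiquitin ligase, fell by 0.68 (SE 0.11). In the list as a whole 19 were lower and 10 higher than in the knockdown. Of 28 NF-kappaB response genes 17 rose and 7 fell, with a median of 0.41. TNFAIP3, a brake on NF-kappaB, went from 15.2 and 14.3 to 29.6 and 31.98 (1.06, SE 0.08), and BIRC3, an inhibitor of cell death, from 211 and 209 to 347 and 351 (0.73, SE 0.03). TNFAIP3 exceeded the knockdown by 0.21 (SE 0.07). BIRC3 was higher still in the knockdown, at 377 and 376 CPM, and in the wild-type rescue, at 408 and 379. The mutant rescue was called lower than these lines, with log2 differences of -0.11 (SE 0.02) and -0.17 (SE 0.02). The chemokine CXCL8 rose by 0.97 (SE 0.16) over the control and, like CCL20, was lower than in the knockdown (-0.75, SE 0.12).

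Luminal epithelial markers fell in 12 of 27 and rose in 6, and genes of integrins, adhesion and matrix fell in 22 of 38 and rose in 8. Keratin KRT18 went from 198 and 204 CPM to 132 and 131 (-0.61, SE 0.03), ESRP2, an epithelial splicing regulator, fell by 0.72 (SE 0.04), and the membrane protease PRSS8 rose by 0.55 (SE 0.03). FERMT1, which activates integrins, went from 16.6 and 17.01 to 9.06 and 8.69 (-0.92, SE 0.11), and MMP16, a membrane metalloproteinase, from 12.1 and 10.2 to 6.15 and 6.74 (-0.79, SE 0.13). MMP16 was highest in the knockdown, at 23.02 and 23.1.

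**Figure D5:**
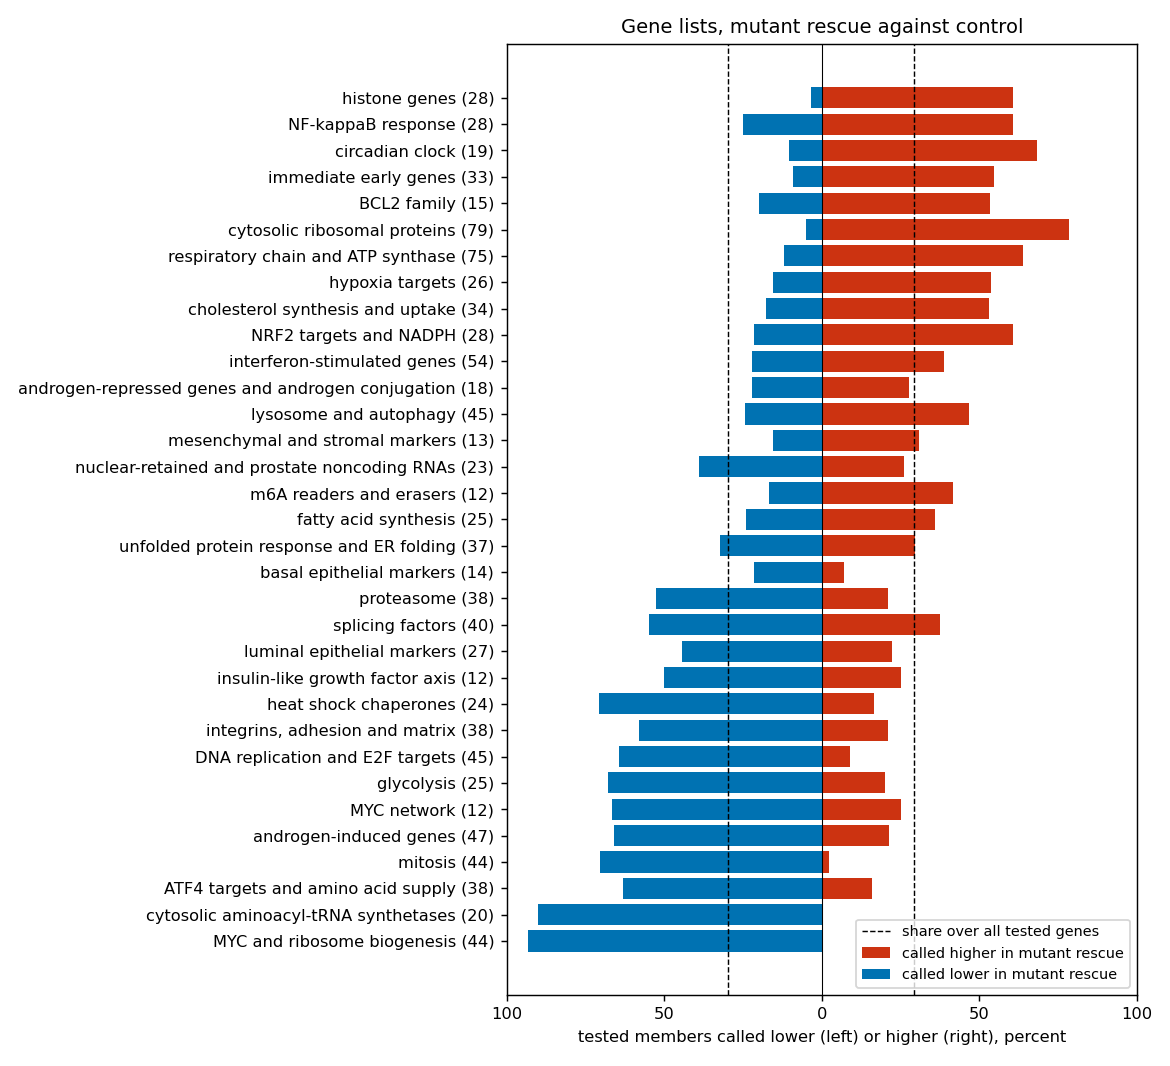
Share of the tested members of the lists shown called higher (right) or lower (left) in the mutant rescue against the control, ordered by median log2 fold change; the dashed lines mark the shares over all tested genes, 29.1% and 29.7%, and numbers in brackets are the tested members (lists with at least 10). The ribosome biogenesis list has 41 of 44 members lower and none higher, and the ribosomal protein list 62 of 79 higher.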

How the data were processed

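RNA was measured by sequencing in LNCaP cells, and the deposited table holds the authors' raw counts per gene for each of the 8 libraries, with a column of other kind, the deposited gene length in bases. Per the submitters' processing notes, CASAVA, STAR 2.5.2b, featureCounts, DESeq2 and the build hg19 were used; whether counting used strand is not given in the sources used here, so overlapping and near-identical genes are uncertain. The members, gene lists and tests were chosen with earlier results of these data known.

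The tests used edgeR 4.0.16 (R 4.3.3): filterByExpr (minimum count 10, minimum total 15), TMM scaling, and a robust quasi-likelihood fit with 1 mean per group over all 8 libraries. Tests were two-sided, with Benjamini-Hochberg adjustment over 15289 genes and a threshold of 0.05; SEs were derived from the fold change and the F statistic. At 2 libraries against 2 an exact permutation test cannot go below p = 0.333333, so all p-values come from fits across genes. The steps were tested on simulated data, in which few genes were changed, in balanced directions, with the spread fitted to these libraries. That test does not cover a comparison in which most genes are called, or a spread beyond that of these libraries. Intervals of counting error do not cover the fact that reads without molecular identifiers are not independent molecules.

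Named genes are METTL3, KLK3, MYC, the 15 largest rises and the 15 largest falls (called, mean of at least 5 CPM, no clone, LOC, antisense or LINC name, not on the Y chromosome, groups not overlapping) and up to 6 called members of each list with the largest changes, with the regulators that name a list. A part of these is printed, and some are not reported here. NCL, FASN, ATF3, CIART, CHAC1, SQLE, MYBBP1A, LYAR, WDR43, SLC1A5, ACPP and CLOCK were chosen after their values were seen. Promoters came from RefSeq (GRCh38.p14) by symbol, and the METTL3 coding sequence from GENCODE release 29; no coordinates of hg19 are given. Alternatives were DESeq2 1.42.0 size factors and its Wald test, no filter on low counts, only the groups compared, the replicate number as a block, a length trend (lowess, span 0.3) as an offset, a minimum absolute log2 fold change of 1, a mean of at least 10 CPM, and each library left out.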

Additional observations from a re-analysis of the deposited data

How the results depend on the processing

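The counts of called genes stayed within 1.5 times under DESeq2 size factors, no filter on low counts, only the groups compared, the length trend removed and a mean of at least 10 CPM. When changes of at least 1 on the log2 scale were required, 837 genes passed against the control (373 higher, 464 lower), 380 against the knockdown (136 and 244) and 185 against the wild-type rescue (60 and 125). The DESeq2 Wald test called 2615 genes higher against the knockdown, and 3721 against the wild-type rescue (1922 higher, 1799 lower); the cause was not tested. Leaving out 1 library gave 7737 to 7882 calls against the control, 6631 to 6865 against the knockdown and 4959 to 5257 against the wild-type rescue, with the other library of the line assumed to vary like the other lines. Leaving out a knockdown or wild-type rescue library was chosen after seeing the data. Deviations of same-numbered libraries correlated at -0.0141 to 0.0194. Libraries of a line differed by little more than sampling noise, so this cannot show whether the replicate numbers pair the libraries. With the replicate number as a block, 9004 genes were called against the control.

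Of 2480 values of 248 genes under 10 alternatives, 2445 kept their direction and side of the threshold, 29 lost the call, 3 gained it and 3 changed sign. Those 3 were never called: CHAC1 (0.0686 without control replicate 2; -0.160 to 0.0686 over the libraries left out) and SREBF1 (-0.0045 without control replicate 1 and -0.0084 without mutant rescue replicate 1; -0.0084 to 0.0227 over the libraries left out). Of 760 counts of list members 34 moved by over 1.5 times, mostly counts of under 10 genes. Genes under about 5 CPM were not named, since their SE was larger at this depth.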

Other observations

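Some further lists were counted in the mutant rescue against the control, beside the 29.1% higher and 29.7% lower of all tested genes. Of 45 genes of lysosomes and autophagy 21 rose and 11 fell. The counts over the control were much the same in the knockdown (19 higher, 11 lower) and the wild-type rescue (19 higher, 10 lower). GABARAPL1, which builds autophagosomes, went from 137 and 139.9 CPM to 286 and 287 (1.05, SE 0.03), and the autophagy kinase ULK1 from 146 and 146 to 228 and 225 (0.64, SE 0.03). Both were above the knockdown, by 0.55 (SE 0.03) and 0.41 (SE 0.03). ATG7, which conjugates autophagy proteins, fell from 24.3 and 22.4 to 17.00 and 15.7 (-0.52, SE 0.09). Proteasome genes fell in 20 of 38 and rose in 8 (5 by DESeq2 and 4 with the length trend removed), and the activator PSME3 fell by 0.58 (SE 0.03). Hypoxia targets rose in 14 of 26 and fell in 4. In the knockdown 13 were higher and 6 lower than in the control, and in the wild-type rescue 9 and 9. PLOD2, a collagen hydroxylase, rose from 5.37 and 5.48 CPM to 13.1 and 13.1 (1.27, SE 0.13). It stood at 13.1 and 14.4 CPM in the knockdown, from which the mutant rescue did not differ by the test (-0.07, SE 0.10, edgeR adjusted p = 0.60).

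In the insulin-like growth factor axis 6 of 12 genes fell and 3 rose (1 rose by DESeq2 or without mutant rescue replicate 2). IGF2R, which clears IGF2, stood at 437 and 440.2 CPM in the control, 512 and 529 in the knockdown, 331 and 333 in the wild-type rescue and 245 and 254 in the mutant rescue. Its log2 difference was -0.82 (SE 0.02) from the control and -1.06 (SE 0.02) from the knockdown. The adaptor IRS1 went from 9.79 and 10.2 CPM to 5.03 and 4.22 (-1.11, SE 0.15). Genes of the unfolded protein response were split, 11 higher and 12 lower of 37. CREB3L4, an androgen-regulated transcription factor of the endoplasmic reticulum, fell by 0.86 (SE 0.06), and the chaperone DNAJB9 rose by 0.57 (SE 0.07). Of 23 nuclear-retained and prostate noncoding RNAs 6 rose and 9 fell; DRAIC fell by 0.77 (SE 0.12) and PART1 rose by 0.59 (SE 0.11). Of 9 neuroendocrine markers tested 3 rose and 2 fell. ENO2, the neuronal enolase, rose by 0.27 (SE 0.04) and the secretory protein PCSK1N by 0.26 (SE 0.08). PCSK1N was not called by DESeq2 (adjusted p = 0.056), and its log2 fold change was 0.15 without mutant rescue replicate 1. SYT4, a vesicle protein, fell from 200.1 and 197 CPM to 106 and 113 (-0.86, SE 0.03), and STMN1 fell by 0.33 (SE 0.04).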
